A study of Homo sapiens with 24 samples.

Results

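The comparison of paclitaxel with control in the lung adenocarcinoma line H1975 covered 6 RNA-seq libraries, 3 labelled control and 3 labelled paclitaxel, of 24 in the series. The 6 libraries were taken by their labels, and the comparison itself was chosen with earlier results of these data known. H1975 is an established human line that carries an activating EGFR mutation together with the gatekeeper mutation that blocks early EGFR inhibitors. The series treated H1975 and a second EGFR-mutant lung line, PC9, with paclitaxel, with the EGFR inhibitor almonertinib, with both drugs or with neither, and collected RNA after 24 h. It held 3 libraries in each of 8 groups. For the H1975 test the spread was estimated from all 12 H1975 libraries, including those given almonertinib (1 nM) or both drugs.

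In H1975 the paclitaxel group received 1 nM of the drug for 24 h, and the control group is labelled as control only; what vehicle the controls had is not given in the sources used here. PC9, used below for 1 comparison, received 0.3 nM for the same time. Both H1975 groups come from 1 cell line, and no label tells whether replicates were grown as independent cultures. Every p-value therefore reflects variation among replicate libraries that could be technical only. The libraries had the profile of an epithelial line. In CPM (each library's counts scaled to the same total, here without scaling factors), EPCAM lay in the range 141 to 234, KRT7 in the range 4585 to 6886 and the lung lineage factor NKX2-1 in the range 30.3 to 75.3. The products of mature alveolar cells measured here were near 0 or low, SFTPB at 0 to 0.0703 and NAPSA at 0.416 to 3.42. Of 16 markers of other cell types, the leukocyte marker PTPRC, the myeloid marker LYZ and the fibroblast markers DCN and LUM had no count in any of the 6 libraries. Others had counts: the myeloid marker CD14 stood at 6.48 to 6.74 CPM in the controls and 9.11 to 9.52 CPM under paclitaxel, without overlap, the fibroblast marker COL1A1 at 6.43 to 7.79 CPM in the controls and 5.34 to 10.4 CPM under paclitaxel, and the endothelial marker CDH5 at 2.72 to 5.40 CPM in the controls and 1.59 to 2.81 CPM under paclitaxel.

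Paclitaxel binds beta-tubulin in assembled microtubules and stops them from shortening, which disturbs the mitotic spindle and holds dividing cells in mitosis. At low doses cells can leave mitosis with missegregated chromosomes. Interferon-stimulated genes, a main part of the results here, are switched on when interferons bind their receptors, JAK kinases at the receptors become active, and a complex that includes STAT2 and IRF9 binds short promoter elements. Many of their products bind or degrade viral RNA or hold back virus entry. The CCN genes, 2 of which fell, are targets of the coactivator YAP, which works with TEAD factors and responds to cell shape, contact and actin tension.

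The library labelled paclitaxel replicate 1, called library 1 below, stood apart. Mitochondrially encoded genes took 2.50% of its counts against 0.98% to 1.19% in the other 5, and replication-dependent histone genes summed to 364 CPM against 210.0 to 249. It also had the fewest counts, 14232299, of a range that reached 24245314. In mean squared difference per gene over counting variance, library 1 was 62.83 and 80.05 from paclitaxel replicates 2 and 3. These were 6.14 apart. In H1975, nearer libraries included those given both drugs (25.27 to 28.34), almonertinib replicate 2 (29.13) and control replicate 3 (30.08). Almonertinib replicate 3 was farther (82.53). Control replicate 3 was also nearer to almonertinib replicate 2 (20.53) than to control replicates 1 and 2 (48.36 and 31.88). The reason was not tested. Libraries differed along 2 gene properties as well. The rank correlation of a gene's deviation with its GC content was −0.47 in library 1, −0.61 in control replicate 3 and 0.05 to 0.40 in the other 4. With transcript length it was −0.31 and −0.33 in paclitaxel replicates 2 and 3, −0.16 and −0.15 in control replicates 1 and 2, and 0.20 in both control replicate 3 and library 1. Their part in the results was not tested beyond fits without library 1 and fits with each library's length and GC trends removed.

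Of 12345 genes tested with edgeR's quasi-likelihood test, 79 passed at a Benjamini-Hochberg adjusted p under 0.05, which is 0.64% of those tested, with 55 higher (0.446%) and 24 lower (0.194%) under paclitaxel. At least 2-fold changes made up 44 of the higher and 11 of the lower genes, and 1007 genes (8.16%) had an unadjusted p under 0.05. Of the genes that rose, 20 were interferon-stimulated genes and 6 antigen presentation genes, and CCN1 and CCN2 were among those that fell. The median change over all genes was −0.03 on the log2 scale. In each of the 79 genes the 3 paclitaxel libraries lay wholly above or wholly below the 3 controls, which held for 13.8% of all genes tested. In bulk RNA, fewer cells of a kind and less RNA per cell cannot be told apart.

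**Figure D1:**
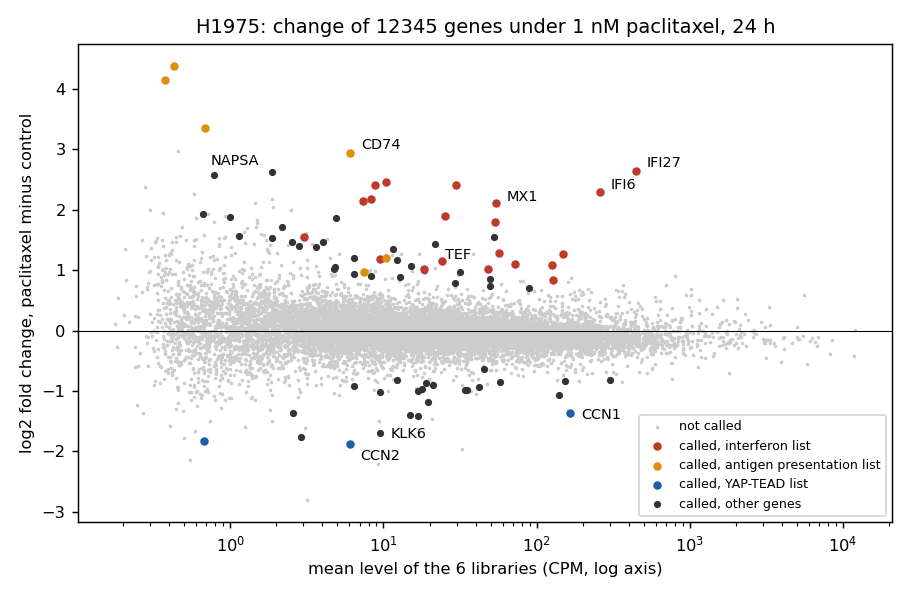
The log2 fold change of paclitaxel against control (vertical axis) is plotted against the mean level of the 6 libraries in CPM (log axis) for 12345 genes. Genes called at an adjusted p under 0.05 are coloured by gene list; IFI27 and IFI6 have the highest CPM of the interferon list among them, and CCN1 and CCN2 lie among the 24 genes that fell.

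Leaving out library 1 gave 54 calls of 12430 genes (0.434%), 39 higher (0.314%) and 15 lower (0.121%). Of the 79 genes, 44 were called again, 31 higher and 13 lower, and all 79 kept their direction; the change without library 1 was at least 0.80 of that with it. Another 10 genes were called only without it. The count of calls rested on several libraries besides this one: it was 33 without control replicate 1, 34 without control replicate 2, 48 without control replicate 3 and 39 without either paclitaxel replicate 2 or 3. For 28 genes, 21 higher and 7 lower, the call held in each of these 6 fits and in each alternative that tested the gene. With length and GC trends removed, 331 genes were called (2.68%), 163 higher (1.32%) and 168 lower (1.36%), all 79 among them; the share of higher genes was then 49.2% against 69.6%. DESeq2 called 97 genes higher (0.786%) and 75 lower (0.608%). In some fits leaving out library 1 raised the count: with only the 2 groups fitted it went from 118 (0.978%) to 383 (3.15%), and with the trends removed from 331 to 388 (3.12%). Without almonertinib replicate 1, a library of another H1975 group, 237 genes were called (1.9%).

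**Figure D2:**
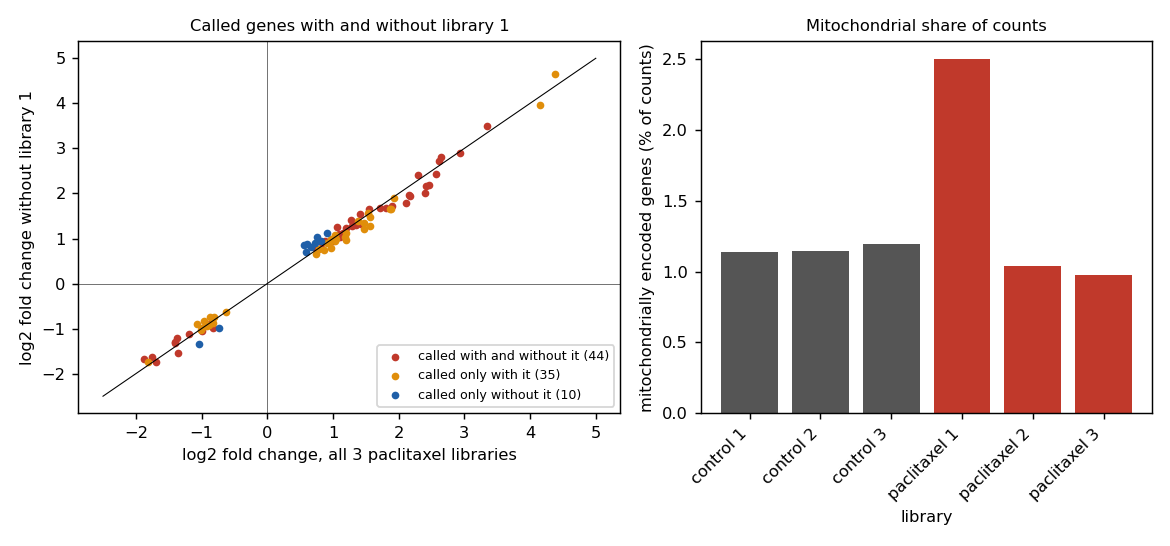
Left, the log2 fold change without library 1 against that with all 3 paclitaxel libraries, for genes called in either fit; the line marks equal values, and the 44 genes called in both lie near it. Right, the share of each library's counts from mitochondrially encoded genes; library 1 stands at 2.50% and the other 5 at 0.98% to 1.19%.

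Interferon-stimulated genes made up more of the genes that rose than any other of the 41 lists examined. Their list also had the most entries, and the lists were chosen with earlier results of these data known. Of a list of 48 such genes 47 were found and 46 tested; 20 rose and 0 fell; of all genes tested 0.446% rose. The median log2 fold change of the list was 1.10, against −0.03 over all genes, and 45 of 46 values were positive. In 40 of the 46 genes all paclitaxel libraries lay above all controls, against 6.68% of all genes. Without library 1, 18 rose and the median was 1.02; with length and GC trends removed, 39 rose. Summed over the list, the level was 2519.8 to 2917 CPM in the controls and 5583 to 5879 CPM under paclitaxel, with library 1 the highest. The summed level of 16 markers of other cell types was 16.95 to 21.5 CPM in the controls and 19.0 to 24.5 CPM under paclitaxel, with library 1 the highest; their part in the result was not tested.

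IFI27, a mitochondrial protein of the interferon response (chr14:94104836-94116698), had 124, 101 and 141 CPM in control replicates 1 to 3 and 569, 847 and 876 CPM in paclitaxel replicates 1 to 3. All 3 treated libraries stood well above the controls, library 1 the least. The log2 fold change was 2.64 ± 0.24 (approximate SE, derived from the test statistic), 6.25-fold, with an adjusted p of 4.5e-05 in edgeR's test. It was 2.82 without library 1. IFI6 (chr1:27666061-27672218), which restrains apoptosis and flavivirus replication, stood at 91.2, 72.1 and 100.3 CPM in the controls and 347, 438 and 503 CPM under paclitaxel. The groups were far apart, and the log2 fold change was 2.29 ± 0.20 (edgeR adjusted p = 3.6e-05).

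The GTPases that trap viral nucleocapsids rose together. MX1 (chr21:41420304-41459214) had 15.5, 21.1 and 24.3 CPM in the controls and 124, 68.7 and 71.9 CPM under paclitaxel, with library 1 the highest; its log2 fold change was 2.12 ± 0.24 with library 1 and 1.79 without it (edgeR adjusted p = 0.00022 and 0.00048). MX2 had 2.41, 2.74 and 4.398 CPM in the controls and 23.9, 14.7 and 14.5 CPM under paclitaxel, a log2 fold change of 2.47 ± 0.25. The 2′-5′ oligoadenylate synthetases sense double-stranded RNA and activate RNase L. OAS1 stood at 22.1, 23.0 and 26.3 CPM in the controls and 97.8, 70.2 and 81.6 CPM under paclitaxel, a log2 fold change of 1.81 ± 0.16 (edgeR adjusted p = 3.6e-05). OAS2 stood at 8.05, 7.82 and 12.5 CPM and 74.0, 35.7 and 41.1 CPM, and its change was 2.41 with library 1 and 2.02 without it. In both genes no treated library came near the control range.

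IFIT1, which binds RNA that lacks the host cap methylation, had 7.73, 9.08 and 15.1 CPM in the controls and 48.9, 39.7 and 30.5 CPM under paclitaxel (log2 fold change 1.90 ± 0.28). The others with large changes had fewer CPM: IFI44L with a log2 fold change of 2.42, XAF1, a proapoptotic antagonist of XIAP, with 2.17, and CMPK2, a mitochondrial nucleotide kinase, with 2.15. For the further members of this list named in the next sentences, the choice was made after their values were seen. IRF7, the transcription factor that amplifies interferon production, rose by 1.29, and BST2, which tethers budding virus to the cell, by 1.27. OASL rose by 1.10, the deISGylase USP18 by 1.16 and IFITM1 by 1.09; USP18 and IFITM1 have near-identical copies, and reads shared with these make their counts uncertain.

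STAT2 and IRF9, which carry the interferon signal and are also named after their values were seen, were not called. STAT2 had 0.51 (adjusted p = 0.56) and IRF9 1.19 (adjusted p = 0.21). ISG15, the ubiquitin-like modifier, had 0.91 with library 1 (adjusted p = 0.12) and 1.12 without it, where it was called (adjusted p = 0.030). IFITM2 was the 1 tested member with a value below 0, −0.25 (adjusted p = 0.88). Of 12 tested genes of a nucleic acid sensing list, which holds more than sensors, none was called by edgeR or DESeq2. At an unadjusted p under 0.05 there were 4, all higher, and the one with the smallest p, SAMHD1, had 0.81 (edgeR adjusted p = 0.23). With the trends removed 3 genes of this list were called higher, against 1.32% of all genes, SAMHD1 among them (edgeR adjusted p = 0.0061).

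The promoter windows of called genes were read from RefSeq (GRCh38.p14, 250 bases before to 50 bases after each start) and searched on both strands for 3 motifs. The first was the core of the interferon-stimulated response element, written here as GAAA, any 2 bases, GAAA. A window was found for 55 of the 79 genes. Of the 14 called genes of the interferon list with a window, 8 held the element (57.1%), and of the 37 tested genes of that list, called or not, 22 (59.5%), against 2.75% of the windows of tested genes and 3.65% of all 27305. Of the 24 other genes that rose, 3 held it (12.5%). The 4 windows below belong to genes described above and were picked after their values were seen, to show the element in genes with a large change; capitals mark the matches, on either strand.
IFI27 (chr14:94110486-94110785, plus strand): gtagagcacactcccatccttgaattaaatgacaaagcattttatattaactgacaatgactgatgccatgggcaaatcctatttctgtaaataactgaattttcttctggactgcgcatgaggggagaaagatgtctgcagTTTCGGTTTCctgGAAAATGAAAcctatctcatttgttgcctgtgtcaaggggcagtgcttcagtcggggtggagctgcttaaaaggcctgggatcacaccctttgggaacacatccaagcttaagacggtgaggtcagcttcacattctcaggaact
IFI6 (chr1:27672143-27672442, minus strand): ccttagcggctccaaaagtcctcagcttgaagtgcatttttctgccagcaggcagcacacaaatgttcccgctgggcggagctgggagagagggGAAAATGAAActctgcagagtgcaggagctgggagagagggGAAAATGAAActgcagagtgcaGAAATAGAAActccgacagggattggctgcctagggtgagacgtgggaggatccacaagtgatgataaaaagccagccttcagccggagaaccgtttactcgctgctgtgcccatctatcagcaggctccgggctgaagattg
IFIT1 (chr10:89392373-89392672, plus strand): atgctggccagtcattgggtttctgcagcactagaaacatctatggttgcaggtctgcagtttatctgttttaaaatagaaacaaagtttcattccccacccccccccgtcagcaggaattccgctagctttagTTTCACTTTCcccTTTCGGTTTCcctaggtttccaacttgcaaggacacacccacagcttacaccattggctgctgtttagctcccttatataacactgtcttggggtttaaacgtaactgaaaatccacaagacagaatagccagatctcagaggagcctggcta
MX1 (chr21:41420308-41420607, plus strand): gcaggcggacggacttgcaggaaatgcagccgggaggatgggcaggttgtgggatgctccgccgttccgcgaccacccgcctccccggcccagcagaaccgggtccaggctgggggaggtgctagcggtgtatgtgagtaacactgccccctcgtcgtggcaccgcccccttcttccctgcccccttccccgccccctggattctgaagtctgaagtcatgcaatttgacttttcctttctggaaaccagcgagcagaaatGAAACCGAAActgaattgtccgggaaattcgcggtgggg
In IFI27 the matches begin at −108 and −95 from the annotated start, in IFI6 at −156, −115 and −93, in IFIT1 at −116 and −103, and in MX1 at position 12 after it. A match is a description of these letters, not a bound site.

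**Figure D3:**
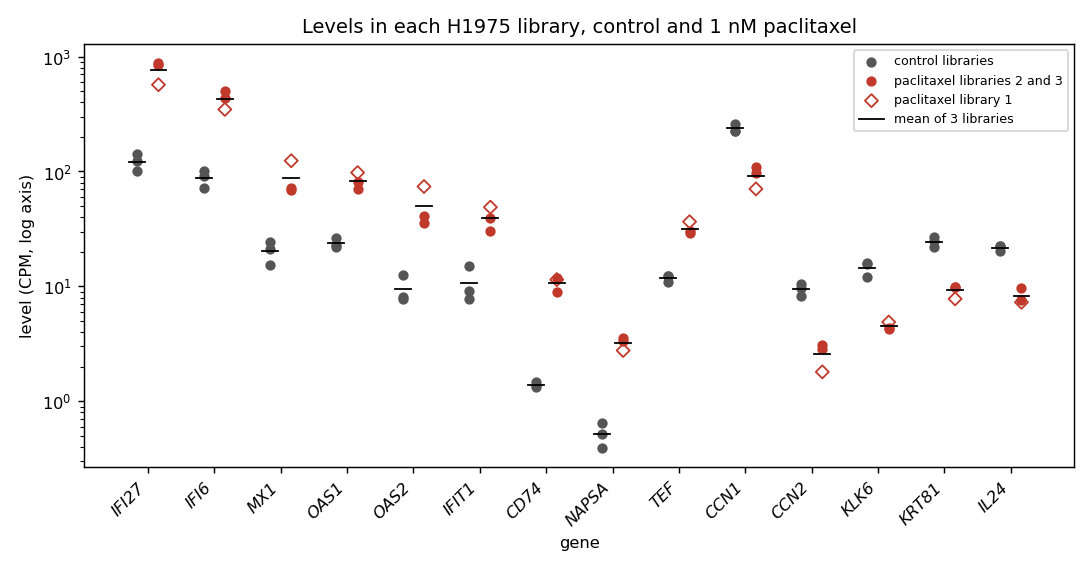
Levels of 14 genes in each of the 6 libraries, in CPM on a log axis; grey points are controls, red points and the open diamond are paclitaxel libraries, and short lines are group means of 3 libraries. The genes on the left lie higher under paclitaxel and CCN1 to IL24 lie lower, with no overlap of the groups in any of the 14. That held for all 79 called genes, and it was part of the rule that named most of the 14.

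Antigen presentation genes rose in part. Of 22 tested, 6 rose and 0 fell, with a median of 0.53; of all genes tested 0.446% rose. With the trends removed 12 rose, against 1.32% of all genes. Without library 1 there were 4, against 0.314%: CD74, HLA-DRA, HLA-B and HLA-F. CD74, the invariant chain that guides class II molecules to the endosome (chr5:150401637-150412929), had 1.39, 1.48 and 1.32 CPM in the controls and 11.5, 8.99 and 11.8 CPM under paclitaxel. The controls were nearly alike and the treated libraries all several-fold higher, a log2 fold change of 2.94 ± 0.30 (edgeR adjusted p = 0.00012) and 2.89 without library 1. HLA-DRA, a class II chain, rested on 7 counts in all controls and 69 under paclitaxel, with a log2 fold change of 3.35 ± 0.44. The other 4 that rose were named after their values were seen. CIITA, the master regulator of class II genes, rose by 1.197 and HLA-DMA, which loads peptide, by 0.98; without library 1 their adjusted p was 0.12 and 0.070. HLA-DPA1 had 2 counts in the controls and 38 under paclitaxel, and HLA-DPB1 2 and 46; both lost their call without library 1 (adjusted p = 0.052 each). HLA genes share reads, so their counts are uncertain. Of the class I chains, HLA-B had a log2 fold change of 0.59 (adjusted p = 0.12) and was called only without library 1 (adjusted p = 0.042), as was HLA-F, with 0.72 (adjusted p = 0.14 with it and 0.038 without it). HLA-B and HLA-F were named after their values were seen.

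Outside these lists, SAMD11, a SAM domain protein (chr1:923928-944581), had 28.8, 25.6 and 25.5 CPM in the controls and 65.7, 81.0 and 87.3 CPM under paclitaxel, a log2 fold change of 1.55 ± 0.17 (edgeR adjusted p = 0.00022). Of 9 lung lineage genes tested, 2 rose and none fell, with a list median of 0.05. Of all genes tested 0.446% rose. Without library 1 the list had 1 that rose, against 0.314% of all genes. NAPSA, an aspartic protease of alveolar cells that helps process surfactant protein B (chr19:50358477-50365830), rose from 0.648, 0.514 and 0.391 CPM to 2.77, 3.31 and 3.57 CPM, a log2 fold change of 2.62 ± 0.34 at a low level. NKX2-1, a transcription factor of the lung lineage, had 34.0, 38.4 and 39.0 CPM in the controls and 69.0, 58.2 and 58.6 CPM under paclitaxel. Its log2 fold change was 0.74 ± 0.14 (edgeR adjusted p = 0.019), and 0.65 without library 1, where it was not called (adjusted p = 0.059). CCL5, a chemokine for T cells, was the 1 called gene of 27 NF-kB targets and cytokines tested, with 3.52, 3.31 and 2.54 CPM in the controls and 5.92, 6.73 and 6.39 CPM under paclitaxel. Its change was 1.02 ± 0.20, and its adjusted p was 0.053 without library 1.

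Among the genes that fell, CCN1 and CCN2, secreted matricellular proteins, had the smallest p of the YAP-TEAD targets. The lowest log2 fold change of that list, −2.14, belonged to a gene that was not called. CCN1 (chr1:85580761-85583962) had 227, 261 and 227 CPM in the controls and 70.5, 96.6 and 109 CPM under paclitaxel. Every treated library was below every control, library 1 the lowest, and the log2 fold change was −1.37 ± 0.17 (edgeR adjusted p = 0.00074), −1.21 without library 1. CCN2 (chr6:131948176-131951373) had 8.28, 10.6 and 9.63 CPM and 1.80, 2.84 and 3.07 CPM, a log2 fold change of −1.87 ± 0.30 (edgeR adjusted p = 0.0065). Of 19 tested genes of the list, 3 fell and 0 rose; of all genes tested 0.194% fell. The third was DLC1, a GTPase-activating protein, named after its values were seen, with −1.82 at about 1 CPM or less; it lost its call without library 1 (adjusted p = 0.082). The median of the list was −0.48, and 10 of 19 lay lower without overlap, against 7.12% of all genes. Without library 1, 2 fell and the median was −0.57; with the trends removed 6 fell, against 1.36% of all genes.

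The TEAD core GGAATG was found in 5 of 17 windows of genes that fell (29.4%) and in 5 of 14 of the tested YAP-TEAD list (35.7%), against 10.8% of tested genes' windows and 14% of all. The window of CCN2 holds 3 matches, in capitals, which begin at −169, −104 and −95, and it is shown because CCN2 had the largest fall on the log2 scale among the genes called.
CCN2 (chr6:131951323-131951622, minus strand): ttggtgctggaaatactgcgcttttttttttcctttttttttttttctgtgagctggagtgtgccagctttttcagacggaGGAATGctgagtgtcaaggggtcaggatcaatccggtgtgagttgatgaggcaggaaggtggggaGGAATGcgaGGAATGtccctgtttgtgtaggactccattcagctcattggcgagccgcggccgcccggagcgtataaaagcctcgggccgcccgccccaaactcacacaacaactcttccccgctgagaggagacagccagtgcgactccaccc
The third motif, the E-box CACGTG, was in 3 of 38 windows of genes that rose (7.89%) and 2 of 17 of those that fell (11.8%), against 10.0% of tested genes' windows. In the tested YAP-TEAD list the E-box was in 4 of 14 windows (28.6%), so a raised share there was not particular to the TEAD core.

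Targets of EGFR and MAPK signalling lay lower as a list, with few calls. Of 28 tested, 2 fell and 0 rose, the median was −0.40, and 15 lay lower without overlap; of all genes tested 0.194% fell and 7.12% lay lower without overlap. The 2 were KLF6, a zinc finger factor, with 68.6, 68.3 and 84.4 CPM in the controls and 42.0, 43.9 and 37.2 CPM under paclitaxel (log2 fold change −0.85 ± 0.15), and DUSP4, a phosphatase that inactivates ERK, with −0.63 ± 0.14 (edgeR adjusted p = 0.049). DUSP4 lost its call without library 1 (adjusted p = 0.10), with the trends removed 10 of the list fell, against 1.36% of all genes, and DESeq2 called 6 lower, against 0.608%. Of 21 immediate early genes, 3 fell, CCN1, KLF6 and the stress factor ATF3, which had −0.82 ± 0.17, against 0.194% of all genes. ATF3 lost its call without library 1 (adjusted p = 0.069). With the trends removed 5 of these genes fell, against 1.36% of all genes, and DESeq2 called 5 lower, against 0.608%. EGR1, the early response zinc finger factor, had 46.3, 47.2 and 68.8 CPM in the controls and 36.1, 23.0 and 19.7 CPM under paclitaxel; its change was −1.05 ± 0.23 (adjusted p = 0.053) with library 1 and −1.34 (adjusted p = 0.013) without it. No ERBB receptor or ligand of 10 tested was called by edgeR, 5 had an unadjusted p under 0.05, all lower, and DESeq2 called 1 lower; with the trends removed 2 fell. The ligand AREG had −0.996 ± 0.22 (edgeR adjusted p = 0.056, and 0.0017 with the trends removed), and EGFR 100.4, 108 and 147 CPM in the controls and 84.3, 70.7 and 69.8 CPM under paclitaxel (adjusted p = 0.24).

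Other genes fell as well. KLK6, a secreted serine protease (chr19:50958631-50969673), had 15.7, 15.9 and 12.1 CPM in the controls and 4.89, 4.36 and 4.28 CPM under paclitaxel, a log2 fold change of −1.69 ± 0.20 (edgeR adjusted p = 0.00058). IL24, a cytokine of the IL-10 family, had 22.3, 20.4 and 22.4 CPM and 7.27, 7.68 and 9.72 CPM, a change of −1.40 ± 0.18. In both, every treated library was below every control. KRT81, a hair keratin whose near-identical relatives make its count uncertain, fell by 1.41 ± 0.18 on the log2 scale, and the carboxypeptidase CPA4 by 1.18 ± 0.18. PLK2, a polo-like kinase induced by p53, was the 1 called gene of 28 p53 targets tested and fell by 0.998 ± 0.17. Of all genes tested 0.194% fell. The remaining named genes that fell were MYEOV with −1.07, C1orf116 with −1.01, the ubiquitin ligase MARCHF4 with −0.99, the receptor phosphatase PTPRH with −0.99 and the Rab exchange factor DENND2A with −0.96. Without library 1, MYEOV, C1orf116, MARCHF4 and DENND2A were not called, with adjusted p from 0.058 to 0.11. The glucose transporter SLC2A1 stood at 367, 399 and 393 CPM in the controls and 199, 223 and 237 CPM under paclitaxel, a change of −0.81 ± 0.15, as the 1 called gene of 32 glycolysis and hypoxia genes tested. It lost its call without library 1 (adjusted p = 0.056); the 1 gene of the list called then was HK2, the inducible hexokinase, named after its values were seen, with −0.99 (adjusted p = 0.038, and 0.16 with library 1).

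The drug's target and the mitotic machinery showed no called gene. Of 14 alpha and beta tubulins tested none was called by edgeR or DESeq2 and none had an unadjusted p under 0.05; the median was −0.14. TUBB had 2298, 2309 and 1881 CPM in the controls and 1994, 1797 and 1809 CPM under paclitaxel, with overlapping groups and a log2 fold change of −0.21 ± 0.22. TUBA1B had −0.13 ± 0.22 and the neuronal TUBB3, whose raised level is linked to taxane resistance, −0.08 ± 0.31 at 2.79 to 5.13 CPM; reads shared among tubulin genes make single values uncertain. No gene was called by either tool among 14 mitotic kinesins (none with an unadjusted p under 0.05), 26 spindle checkpoint and kinetochore genes (1 lower at that p) and 39 mitotic entry and exit genes (1 higher), and their medians were each −0.02. CCNB1, the mitotic cyclin, had 179, 181 and 201 CPM and 233, 215 and 211 CPM, a change of 0.23 ± 0.15 (edgeR adjusted p = 0.83). The proliferation marker MKI67 had −0.41 ± 0.24 and the p53 target CDKN1A −0.26 ± 0.21, and neither was called. None of 40 G1-S genes or 30 DNA repair genes was called by edgeR or DESeq2 or had an unadjusted p under 0.05. Of 30 BCL2 family and death receptor genes none was called by either tool and 3 had such a p, 1 higher and 2 lower; with the trends removed 1 was called lower. The drug efflux pump ABCB1 had too few counts to be tested. These p-values do not show that the levels were equal.

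**Figure D4:**
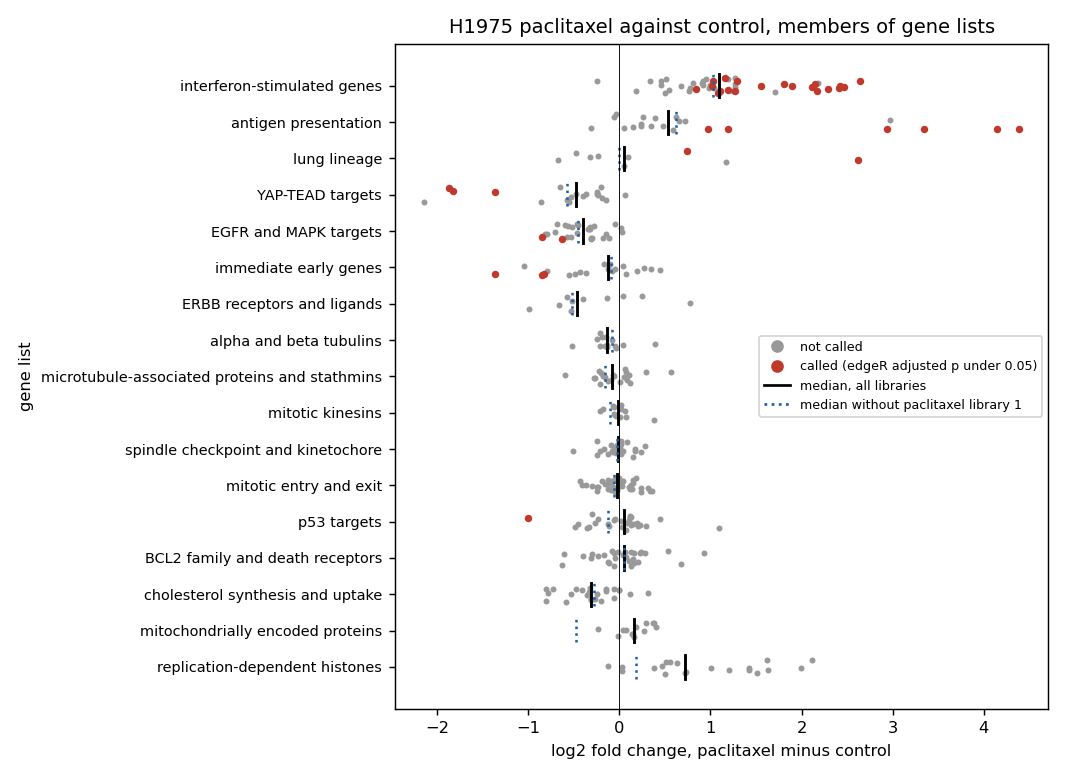
Each point is the log2 fold change of 1 gene of a list, red where called by edgeR; the black bar is the list's median and the dotted blue bar its median without library 1. The interferon list lies to the right at a median of 1.10, the YAP-TEAD list to the left at −0.48, and the mitochondrial and histone lists are those whose medians move most when library 1 is left out.

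In some lists the median moved with library 1. That of 13 mitochondrially encoded genes was 0.17 with it and −0.48 without it, and that of 20 histone genes 0.73 and 0.18. No gene of either list was called by edgeR. DESeq2 called 3 histone genes higher, against 0.786% of all genes, and with the trends removed 1 was called higher, against 1.32%. At an unadjusted p under 0.05 there were 9 histone genes, all higher, and no mitochondrial gene. Among 24 cholesterol genes none was called by edgeR, 8 had an unadjusted p under 0.05, all lower, and the median was −0.31. DESeq2 called 2 of them lower, against 0.608% of all genes. With the trends removed 5 of them fell, against 1.36% of all genes. SQLE, an early oxygen-dependent enzyme of the pathway, had −0.73 ± 0.19 (edgeR adjusted p = 0.12, and 0.00098 with the trends removed).

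Other lists lay lower with few or no calls in the main test, where 7.12% of all genes lay lower without overlap and 0.194% fell. With the trends removed 1.36% of all genes fell and 1.32% rose, and DESeq2 called 0.608% lower. Of 31 genes of the ATF4 programme and tRNA synthetases, which answer amino acid stress, 1 fell, ATF3, and 13 lay lower without overlap; the median was −0.29, and with the trends removed 7 fell and 1 rose. Of 31 mesenchymal and matrix genes none was called, 11 had an unadjusted p under 0.05, all lower, 13 lay lower without overlap, DESeq2 called 3 lower, and with the trends removed 5 fell. THBS1, a matrix glycoprotein, had the smallest p, with −0.82 ± 0.20 (edgeR adjusted p = 0.090, and 0.015 with the trends removed). Of 21 epithelial junction and keratin genes 1 fell, KRT81, 8 lay lower without overlap, the median was −0.29, and with the trends removed 4 fell. None of the 8 epithelial markers was called by edgeR or DESeq2, and 2 had an unadjusted p under 0.05. Their sum was 13343 to 14244 CPM in the controls and 10942 to 11589.8 CPM under paclitaxel, without overlap. KRT7 was the largest part, with 5881 to 6886 CPM in the controls and 4585 to 4949 CPM under paclitaxel. All 8 log2 fold changes were below 0, but only 4 markers lay lower without overlap. In EPCAM, CDH1, KRT8 and CLDN7 the groups overlapped. Of 14 fatty acid synthesis genes none was called by edgeR, 4 had an unadjusted p under 0.05, all lower, and with the trends removed 3 fell. FADS2, a fatty acid desaturase, had −0.62 ± 0.16 (edgeR adjusted p = 0.12, and 0.0019 with the trends removed). The 14 lists not described singly held 320 tested genes, of which 1 fell, KLF6, and 0 rose. Without library 1 the counts there were 1 and 2, against 0.121% and 0.314% of all genes, and with the trends removed 5 and 3.

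The change under paclitaxel was set against that in PC9, at the lower dose of 0.3 nM, with a test of the difference over all 24 libraries. The doses differ, so line and dose cannot be told apart. The difference was called for 2290 of 13380 genes (17.1%), 1325 higher in PC9 (9.9%) and 965 lower (7.21%); with RLE scaling in place of TMM the split was 1043 and 1229. Of the 79 genes called in H1975, 38 had a called difference, 25 of those that rose and 13 of those that fell. Of the 55 that rose, 29 were also called higher in PC9, where 21.5% of all genes were, and of the 24 that fell, 11 were called lower, where 16.3% were. Among interferon genes, MX2 had 2.47 in H1975 and 2.58 in PC9, and IFI6 2.29 and 2.42. The change of IFITM1 was larger in PC9, 2.96 against 1.09 (adjusted p of the difference 0.00014), and that of IFIT1 smaller, 0.27 against 1.90 (adjusted p of the difference 0.0033). OASL had opposite calls, 1.10 in H1975 and −1.52 in PC9 (adjusted p of the difference 1.7e-07), as had CCL5, with 1.02 and −1.23, and KLF6, with −0.85 and 0.45. ACSS1 and IRX3, named after their values were seen, were also called higher in H1975, by 1.88 and 0.94, and lower in PC9, with −0.47 and −0.67; without library 1 their adjusted p in H1975 was 0.077 and 0.091. NAPSA and KRT81 had −0.55 and 0.37 in PC9, and their differences from H1975 were called (adjusted p 0.00038 and 0.00060).

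**Figure D5:**
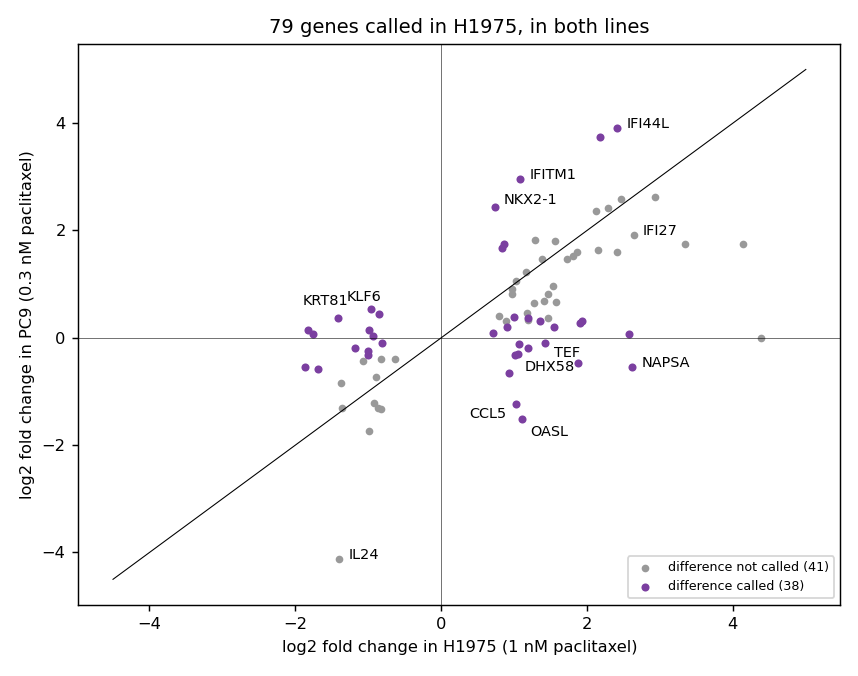
The log2 fold change under 0.3 nM paclitaxel in PC9 (vertical axis) against that under 1 nM in H1975 (horizontal axis) for the 79 genes called in H1975; the diagonal marks equal change. The 38 purple genes had a called difference between the lines; OASL and CCL5 lie in the lower right, called in opposite directions.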

How the data were processed

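RNA of the treated cells was sequenced and gene counts were deposited by the authors in 1 table for 24 libraries; the values are raw read counts per gene, 14232299 to 24245314 per library. HISAT2 2.2.1, HTSeq and GRCh38 are named per the submitters' processing notes; whether counting used strand is not given in the sources used here. The 12 H1975 libraries were fitted together (edgeR 4.0.16, R 4.3.3): genes kept by filterByExpr, TMM factors, the quasi-likelihood test and Benjamini-Hochberg adjustment over all genes tested. The ± after a log2 fold change is its absolute value divided by the square root of the quasi-likelihood F. It is an approximate standard error, not one estimated by the fit. CPM values were computed from the deposited counts with TMM factors. Sums over lists, shares and cell type markers used plain library totals. The difference between lines was an interaction in 1 fit of 24 libraries. Named genes were the 12 highest and 12 lowest called protein-coding genes with a mean of at least 5 CPM and no overlap of groups, the 8 of each direction without library 1, up to 2 in each direction of a list by p (or the 1 with the smallest p), and 8 fixed genes; for the difference between lines, 4 in each direction. Lists not described singly were summed, and some single genes are not reported here. Gene positions are those of GENCODE for GRCh38. Alternatives were RLE factors, 2 other filters, DESeq2 1.42.0, a replicate block, leaving out each library, fits with other groups or only 2, and removal of each library's trend on transcript length and GC content with splines. Over all 276 pairs of libraries, the mean squared difference per gene was at least 3.78 times its counting variance, so no library was taken for another deposited again. The fits were tested on simulated data. The comparison, members and lists were chosen with earlier results of these data known.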

Additional observations from a re-analysis of the deposited data

Results flagged for a closer look

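The difference in the paclitaxel effect between the lines, PC9 minus H1975, was tested as an interaction with edgeR and called for 2290 genes; the doses were 0.3 nM in PC9 and 1 nM in H1975. Of called protein-coding genes with a mean of at least 5 CPM over the 12 libraries compared, the 4 lowest and 4 highest follow on the log2 scale, with counts summed over the 3 libraries of each group. SPRR1A had −4.95, from 1748 counts in PC9 controls, 152 in PC9 paclitaxel, 4 in H1975 controls and 7 in H1975 paclitaxel libraries. SERPINA1 had −4.79, from 6 counts in PC9 controls, 0 in PC9 paclitaxel, 6299 in H1975 controls and 7640 in H1975 paclitaxel libraries. UBE2M had −4.74, from 9 counts in PC9 controls, 0 in PC9 paclitaxel, 50138 in H1975 controls and 39938 in H1975 paclitaxel libraries. AKR1C2 had −4.34, from 50905 counts in PC9 controls, 54039 in PC9 paclitaxel, 0 in H1975 controls and 5 in H1975 paclitaxel libraries. SLC2A10 had 4.18, from 733 counts in PC9 controls, 1121 in PC9 paclitaxel, 6 in H1975 controls and 0 in H1975 paclitaxel libraries. IGFBP3 had 3.23, from 814 counts in PC9 controls, 5590 in PC9 paclitaxel, 3038 in H1975 controls and 1368 in H1975 paclitaxel libraries. Its H1975 controls had 24.5, 19.0 and 102 CPM and its H1975 paclitaxel libraries 23.6, 27.1 and 23.7 CPM. The higher control sum thus came from control replicate 3, and the H1975 change was not called (−0.97, edgeR adjusted p = 0.46). AZGP1 had 2.92, from 2 counts in PC9 controls, 20 in PC9 paclitaxel, 1361 in H1975 controls and 1048 in H1975 paclitaxel libraries. IFITM2 had 2.84, from 195 counts in PC9 controls, 1698 in PC9 paclitaxel, 10861 in H1975 controls and 8371 in H1975 paclitaxel libraries. Where a group had 0 counts, the fitted value depends on the prior count and is no bound. SERPINA1, IGFBP3 and IFITM2 kept the call whichever library of the 4 groups was left out, and each of the others lost it without at least 1 library.

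Other genes named in the text had a called difference by the same test, given in brackets on the log2 scale. Of the genes that rose in H1975, those with a lower value in PC9 were NAPSA (−3.18), OASL (−2.63), ACSS1 (−2.36), CCL5 (−2.27), IFIT1 (−1.64), IRX3 (−1.61), TEF (−1.53), CIITA (−1.40), SAMD11 (−1.36) and ID2 (−1.05). Those with a higher value in PC9 were IFITM1 (1.86), NKX2-1 (1.68), XAF1 (1.56) and IFI44L (1.48). Of the genes that fell in H1975, those with a higher value in PC9 were DLC1 (1.95), KRT81 (1.77), DENND2A (1.48), CCN2 (1.31), KLF6 (1.28), PTPRH (1.11), KLK6 (1.09), CPA4 (0.97), PLK2 (0.75), SLC2A1 (0.70) and C1orf116 (0.67). Of genes not called in H1975, those lower in PC9 were ISG15 (−1.53), CDKN1A (−1.47), CCNB1 (−1.11), ID3 (−0.91), ID1 (−0.89) and PER2 (−0.83). Those higher in PC9 were EGR1 (1.23), SAMHD1 (1.18), EGFR (0.91), HK2 (0.87), BMAL1 (0.84) and STAT2 (0.81).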

How the results depend on the processing

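The 79 calls stood at 79 with RLE factors (76 of them shared), 91 without a filter on low counts (78 shared), 65 with a stricter filter (59 shared) and 118 with only the 2 groups fitted (76 shared), of which 42 were lower. DESeq2 gave 172 (97 higher, 75 lower, 78 shared), all 24 libraries in 1 fit 245 (137 and 108, 79 shared), and removal of the length and GC trends 331 (163 and 168, 79 shared); the share of higher calls was 56.4%, 55.9% and 49.2%, against 69.6%. With both changes, only the 2 groups and no library 1, there were 383 calls (230 and 153). Alternatives chosen after seeing the data gave 237 (120 and 117) without almonertinib replicate 1, a library of another H1975 group that differs in GC content, and 388 (210 and 178) with the trends and library 1 both removed. What causes these shifts was not tested. Leaving out 1 library of the compared groups at a time gave 33 to 54 calls, 22 to 39 higher and 8 to 15 lower.

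With a replicate block there were 66 calls (48 higher, 18 lower, 64 shared). The numbers did not pair the libraries: same-numbered control and paclitaxel libraries had correlations of deviations of −0.40, 0.16 and −0.35. For no number was this the highest, as the highest correlation with another number was 0.45, 0.27 and 0.31.

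For the difference between lines the 2290 calls became 2272 with RLE factors (1043 higher and 1229 lower, 45.9% higher against 57.9%), 2189 without a filter, 2084 with a stricter one, 2806 with DESeq2 (1486 lower), 2483 with the replicate block and 3398 with the trends removed (1829 lower). Leaving out 1 library gave 1113 to 2975 calls, 540 to 1676 higher and 526 to 1299 lower.

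The 74 named H1975 changes include those of genes not called with all libraries, such as TUBB3, which had no call to lose. Of the called ones, 17 to 20 lost their call when 1 library was left out and 6 with the replicate block. No called one turned its direction. TUBB3, not called, changed sign: −0.25 to 0.25 when 1 library was left out, and 0.0573 with only the 2 groups and no library 1. With 3 libraries a group and counts near 0 in 1 group, as for HLA-DPA1 and HLA-DPB1, the depth limits the size of a change.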

Other observations

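The sets below were chosen after their values were seen, so they are given as values. Of the clock output factors of the PAR bZIP family, TEF had 12.3, 10.9, 12.3 CPM in the controls and 36.6, 28.98, 30.2 CPM under paclitaxel, a log2 fold change of 1.43 ± 0.17 (edgeR adjusted p = 0.00058). DBP rose by 1.18 ± 0.22 and the clock repressor PER3 by 1.47 ± 0.26; without library 1 their adjusted p was 0.079 and 0.056. PER2 had 0.94 and the activators BMAL1 −0.57 and NPAS2 −0.61, none of them called (adjusted p 0.15, 0.28 and 0.059). Of 18 clock genes looked at, 16 were tested. Of these 3 rose, against 0.446% of all genes, and 0 fell. The values were positive in 9 and negative in 7, and the median was 0.24.

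The ID proteins, which block basic helix-loop-helix factors, had positive values in all 4 genes. ID2 rose by 1.36 ± 0.17 and ID4 by 0.89 ± 0.16, called with and without library 1, and ID1 and ID3 had 0.68 and 0.48, not called. Of the interferons themselves, IFNB1 had 0 counts in the 3 controls and in library 1 and 6 in the other 2 paclitaxel libraries together, too few to be tested. IFNL1 had 14 counts in the controls and 25 under paclitaxel, and was not called (edgeR adjusted p = 0.78).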
